A study of Mus musculus with 8 samples.

Results

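The genes described here are 48 type I interferon stimulated genes of mouse macrophages, among 15853 genes in the table the authors deposited of knockout against control. They were taken from a list of names that was chosen with earlier results of these data known. The rule itself held no measured value, and 48 of 48 were found, Ddx58 under its newer symbol Rigi. Each has an adjusted p-value, as do 14619 genes in all. The 8 RNA-seq libraries came from primary bone marrow-derived macrophages, 4 per genotype, differentiated for 7 days with medium conditioned by L929 fibroblasts, a source of the macrophage growth factor M-CSF. Both groups were then treated for 24 h with glucose at 25 mM, insulin at 10 nM and the fatty acid C16:0 (palmitate) at 250 uM. Control cells were Mirc11 fl/fl, Mirc22 fl/fl and Lyz2+/+. Knockout cells were Mirc11 fl/fl, Mirc22 fl/fl and Lyz2 Cre/Cre, so that both groups carry floxed alleles of the 2 clusters encoding miR-23, miR-27 and miR-24, and the knockout group alone carries Cre, driven by a gene of myeloid cells, in place of both Lyz2 copies. Effects of losing the miRNAs, of Cre and of losing Lyz2 cannot be told apart. The study's description calls the libraries biological replicates without saying that each came from its own animal, so p-values measure the spread between these libraries.

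Type I interferons are secreted proteins that signal through the receptor subunits IFNAR1 and IFNAR2 and the kinases JAK1 and TYK2. The kinases activate STAT proteins, which join IRF9 in the factor ISGF3. ISGF3 binds the interferon-stimulated response element (ISRE) in the promoters of antiviral genes, and IRF7, itself an interferon stimulated gene, feeds back on interferon production. Macrophages keep part of this programme active without infection, through low constitutive interferon.

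The promoter sequences are shown first, because the ISRE is a feature that many of these genes hold and that the list did not use. RefSeq promoter windows (GRCm38.p6, the assembly of mm10, 250 bases before to 50 after a start) were matched by symbol for 35 of the 48 genes. An ISRE match was counted where GAAA recurs after a gap of any 2 bases, as GAAA, on either strand. Such a match was present for 16 of the 35 genes (45.7%), against 1079 of 27025 genes with a window (3.99%). A match describes letters in a window and says nothing of binding.

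Igtp and Irgm2, neighbouring genes for immunity-related GTPases that were both called lower in the knockout, each hold 1 ISRE match in the window. Bst2, for the membrane tether tetherin, has 2 overlapping matches, and Cxcl10, for a chemokine that attracts T cells, has its ISRE far from the start. Igtp, Bst2 and Cxcl10 were taken by a rule, the smallest p among those genes of a functional group that hold an ISRE match. Genes of a group without a match could have a smaller p, as Samd9l did in the group of Bst2. Irgm2 was added beside Igtp after its values were seen. Each line gives the 250 bases before the start, 5′ to 3′ on the gene's strand, with the ISRE matches in capitals.

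Igtp (chr11:58199306-58199555, plus strand, ISRE at -34 to -25): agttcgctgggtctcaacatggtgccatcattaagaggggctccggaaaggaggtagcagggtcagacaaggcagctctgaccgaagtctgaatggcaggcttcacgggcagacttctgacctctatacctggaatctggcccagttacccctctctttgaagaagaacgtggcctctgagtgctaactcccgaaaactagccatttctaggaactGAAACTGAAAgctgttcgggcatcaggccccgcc

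Irgm2 (chr11:58214727-58214976, plus strand, ISRE at -64 to -55): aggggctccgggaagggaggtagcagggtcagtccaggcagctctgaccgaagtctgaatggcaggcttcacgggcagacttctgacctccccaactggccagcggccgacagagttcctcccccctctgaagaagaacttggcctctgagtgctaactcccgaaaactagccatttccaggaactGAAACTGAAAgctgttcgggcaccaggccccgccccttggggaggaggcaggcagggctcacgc

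Bst2 (chr8:71537473-71537722, minus strand, ISRE at -130 to -115): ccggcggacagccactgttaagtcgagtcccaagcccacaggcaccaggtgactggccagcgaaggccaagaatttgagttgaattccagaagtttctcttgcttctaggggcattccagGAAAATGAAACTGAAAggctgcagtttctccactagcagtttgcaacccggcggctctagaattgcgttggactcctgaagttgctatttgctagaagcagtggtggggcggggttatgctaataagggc

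Cxcl10 (chr5:92348890-92349139, minus strand, ISRE at -213 to -204): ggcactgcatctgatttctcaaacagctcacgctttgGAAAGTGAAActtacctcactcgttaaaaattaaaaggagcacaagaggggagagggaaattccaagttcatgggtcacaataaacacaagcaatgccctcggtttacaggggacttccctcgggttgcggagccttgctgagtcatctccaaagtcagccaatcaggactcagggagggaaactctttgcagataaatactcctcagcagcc

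Other genes hold the match in forms that differ in number and orientation, and the 30 bases that hold it are given for 6 of them, with the matches in capitals. Isg15 has 3 overlapping matches. Ifit1 has 2 separate ones on the opposite strand. Ifih1 was taken by the same rule as Igtp, and its match lies after the start. The other 5 were chosen to show these forms.

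Ifit1 (chr19:34640785-34640814, plus strand): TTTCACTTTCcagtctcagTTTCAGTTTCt

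Isg15 (chr4:156200871-156200900, minus strand): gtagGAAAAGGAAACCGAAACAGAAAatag

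Oas1a (chr5:120907523-120907552, minus strand): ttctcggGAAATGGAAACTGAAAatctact

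Irgm1 (chr11:48871428-48871457, minus strand): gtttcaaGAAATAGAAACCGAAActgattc

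Stat2 (chr10:128270266-128270295, plus strand): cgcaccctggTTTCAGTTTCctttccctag

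Ifih1 (chr2:62646206-62646235, minus strand): gagaagagaatcGAAACAGAAAccgatctg

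In 13 of the 16 genes a match lay before the start. Of the 41 windows of the 35 genes, 34 had their bases after the start within an annotated transcript of the gene in GENCODE M21. The windows of Irgm2, Bst2 and Stat2 printed here are among the 7 that did not, so the starts from RefSeq and GENCODE differ for them. For Irgm2 the GENCODE gene begins at 58199618, inside Igtp, far before the window shown.

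**Figure D1:**
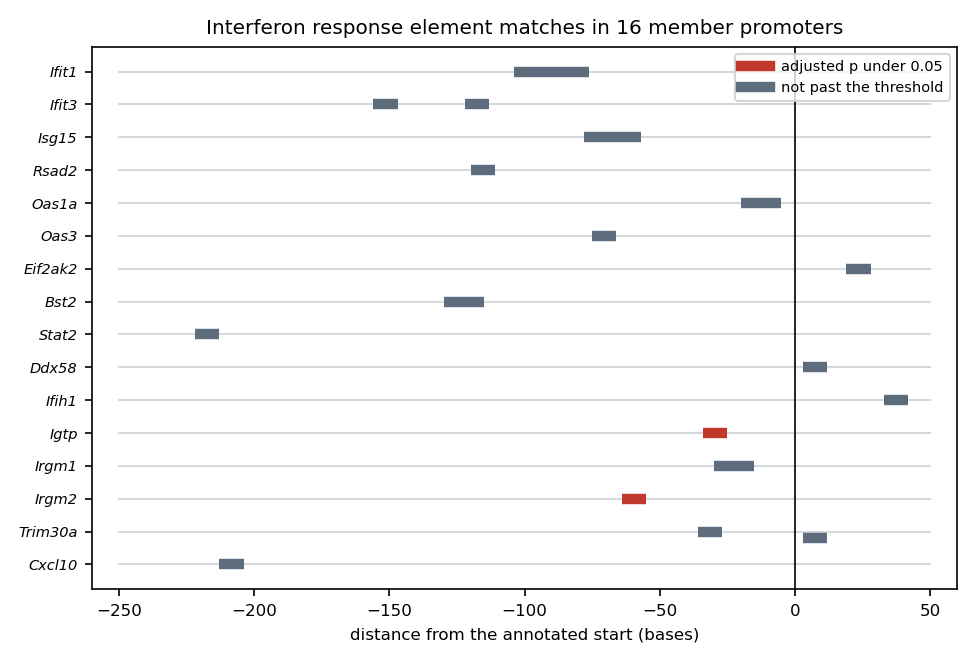
Position of ISRE matches in the promoter windows of the 16 genes that hold one. The x axis is the distance from the annotated start in bases, each row is a gene, bars are matches (close or overlapping ones joined), red marks an adjusted p under 0.05, and the lower bar of Trim30a belongs to its second annotated start. Most bars lie before the start, and those of Eif2ak2, Ddx58 and Ifih1 and the lower bar of Trim30a lie after it.

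All 48 genes had a log2 fold change below 0, which is lower in the knockout, and 6 of them had an adjusted p under 0.05 in the authors' DESeq2 fit. Those 6 make up 12.5% of the list, against 11.7% of all 14619 genes called lower. No gene of the list was called higher, while 11.3% of all genes were. At an unadjusted p under 0.05, 14 of the 48 were lower and 0 higher, and 18% of all genes were lower at that bound. The share called lower at an adjusted p under 0.05 is thus close to the background. The unadjusted share, 14 of 48, lies above the 18% of all genes, a difference that was not tested. All fold changes were also centred on the ratio of the summed group means (-0.06 on the log2 scale). Those sums weight abundant genes and include the 48 genes and Lyz2 itself (mean normalized count 256192, log2 fold change -9.10). With this centring 3 of the 48 were called lower and 0 higher. The share of higher genes among all those called went from 49.1% to 70.9%. The median log2 fold change of the 48 in the table the authors deposited was -0.60 on values from -1.09 to -0.10, while that of all genes tested was 0.00 when rounded (-0.0040), with 7406 of 14619 below 0. The median level in the knockout was 65.8% of control. The genes were measured in the same 8 libraries, so their common sign is not 48 separate observations. The list was also chosen with earlier results of these data known, so the common sign is a description only. In bulk RNA, fewer cells that respond and less RNA in each cell cannot be told apart.

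Values are not shown library by library, because the deposited columns of values per library match no sample label and were not used. Each gene is therefore given by its mean normalized count over the 8 libraries as the authors give it, their log2 fold change and its standard error (SE). Group means were derived from the mean and the fold change with equal group sizes, and 95% intervals come from the fold change and its SE by the normal approximation. Mean counts are not scaled by gene length and are not compared between genes. Counts of calls in the functional groups below stand beside 11.7% of all genes called lower. At an unadjusted p under 0.05 that share was 18%.

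**Figure D2:**
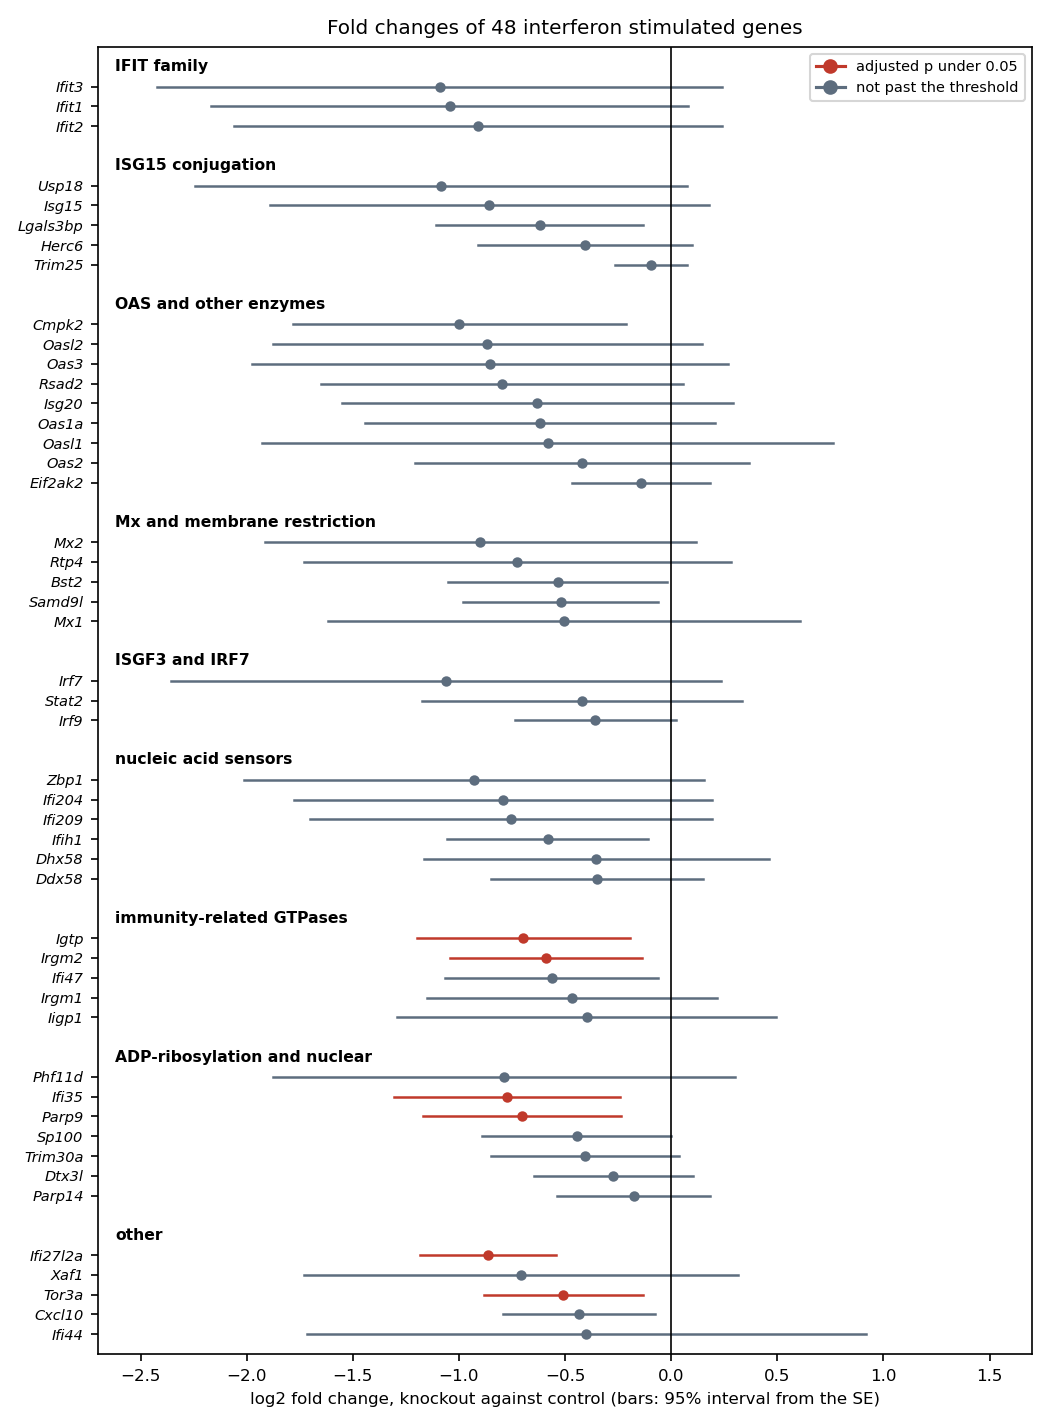
Log2 fold changes of the 48 genes, knockout against control, by functional group. Points are the authors' values, bars are 95% intervals from the SE, and red marks an adjusted p under 0.05. All points lie left of 0, and 34 of the 48 bars cross it.

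The receptor and kinase genes at the head of the pathway showed small values with small errors. The receptor genes Ifnar1 and Ifnar2 were called lower, at -0.18 (SE 0.07, adjusted p = 0.0248) and -0.31 (SE 0.07, adjusted p = 2.01e-04) on the log2 scale of the table deposited by the authors. For the kinases, the deposited table gave Jak1 at 0.09 (SE 0.08, adjusted p = 0.417) and Tyk2 at -0.10 (SE 0.06, adjusted p = 0.221). Ifnb1, which encodes interferon beta, had a mean normalized count of 4.67 and stood at -0.70 (SE 0.79, adjusted p = 0.563) in the table the authors deposited. Of all genes tested, 11.7% were called lower and 11.3% higher, and 18% were lower at an unadjusted p under 0.05. The list of receptors, JAK-STAT components and their brakes had a median of -0.12. Of its 18 measured genes 4 were lower (22.2%) and 0 higher (6 and 0 at the unadjusted bound). Beside the receptors, the other two lower genes were Stat3 at -0.15 (SE 0.05) and Irf8, a factor of the myeloid lineage, at -0.12 (SE 0.04) in the table the authors deposited. Of the 4, Ifnar2 alone passed when fold changes were centred on the summed group means (adjusted p of Ifnar1 = 0.170).

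The factor genes Irf7, Stat2 and Irf9 had larger values with larger errors than those receptor and kinase genes. Irf7, the amplifying factor, had a derived mean of 39068 normalized counts in control and 18751 in knockout cells, 48.0% of control with a 95% interval of 19.5 to 117.8%. The deposited table of the authors gives a log2 difference of -1.06 (SE 0.66, adjusted p = 0.247). Among the subunits of ISGF3, the authors' deposited table gave Stat2 at -0.42 (SE 0.38, adjusted p = 0.458) and Irf9 at -0.36 (SE 0.19, adjusted p = 0.174). None of these passed the threshold, and the intervals of Irf7 and Stat2 hold both no change and a level under 50% of control.

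The IFIT genes, whose products bind foreign RNA, had the lowest values as a family. None of the 3 was called, nor lower at an unadjusted p under 0.05 (0 of 3). Ifit1 stood at 48.5% of control (95% interval 22.2 to 105.8%), from derived means of 10423 and 5055 normalized counts. Ifit2 was at 53.2% (24.0 to 118.1%). Ifit3 had a log2 value of -1.09 (SE 0.68, adjusted p = 0.246) in the table the authors deposited, at a derived 47.0% of control (18.7 to 118.2%). It shares 61.8% of its 31-base words with transcripts of Ifit3b, so counts of the pair may not be separated, and the deposited table has Ifit3b at -1.22 (SE 0.72). The 3 genes lie together at chromosome 19, 34550694 to 34650009.

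ISG15 is a ubiquitin-like protein that is joined to other proteins by an interferon-induced enzyme chain. Isg15 itself was at 55.2% of control (95% interval 26.9 to 113.1%), with a log2 value of -0.86 (SE 0.53, adjusted p = 0.239) in the table the authors deposited. Usp18, which removes ISG15 and restrains the receptor, was at -1.08 (SE 0.59, adjusted p = 0.177) in the deposited table of the authors. Herc6, the mouse ligase for ISG15, was at -0.41 (SE 0.26, adjusted p = 0.252) there. Trim25, a ubiquitin ligase that acts on RIG-I, was the member nearest to 0. The authors' deposited table has it at -0.10 (SE 0.09, adjusted p = 0.456), an interval of 83.1 to 105.3% of control, so a fall below 83.1% lies outside that interval. Lgals3bp, for a secreted glycoprotein, just missed the threshold at -0.62 (SE 0.25, adjusted p = 0.0545) in the table the authors deposited. The group had 0 of 5 called, and Lgals3bp was the 1 gene with an unadjusted p under 0.05.

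The oligoadenylate synthetases are switched on by double-stranded RNA, and the other antiviral enzymes act on nucleotides, RNA or proteins. Of these 9 genes 0 were called and 1 had an unadjusted p under 0.05. That gene, Cmpk2, a mitochondrial nucleotide kinase, came closest, at 50.1% of control (95% interval 29.1 to 86.3%) with an adjusted p of 0.0539 in the authors' DESeq2 fit. Its neighbour Rsad2, which encodes viperin, was at -0.80 (SE 0.43, adjusted p = 0.177) there, and both lie at chromosome 12, 26442746 to 26479837. The synthetase genes Oas1a, Oas2 and Oas3 had log2 fold changes of -0.62 (SE 0.42), -0.42 (SE 0.40) and -0.85 (SE 0.57) in the table the authors deposited, and the related Oasl1 and Oasl2 were at -0.58 (SE 0.69) and -0.87 (SE 0.52). Oas1a shares 68.8% of its 31-base words with other genes, mostly Oas1g, and is uncertain for that reason. Isg20, an exonuclease gene, was at -0.63 (SE 0.47) in the deposited table. Eif2ak2, which encodes the RNA-dependent kinase PKR, was at 90.7% of control (95% interval 72.4 to 113.6%).

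Restriction factors of the Mx and membrane group had 0 of 5 called and 2 at an unadjusted p under 0.05, Bst2 and Samd9l. Mx2 was at 53.6% of control (95% interval 26.5 to 108.5%) and Mx1 at 70.5% (32.6 to 152.3%). These dynamin-like GTPase genes lie side by side on chromosome 16. They share 8.12% (Mx1) and 7.96% (Mx2) of their words with other genes, mostly each other. GENCODE M21 types Mx2 as a polymorphic pseudogene and Mx1 as protein coding. Bst2 had a log2 value of -0.54 (SE 0.26, adjusted p = 0.127) in the table the authors deposited, and Samd9l, which restrains translation in infected cells, was at -0.52 (SE 0.24, adjusted p = 0.0919). Rtp4, for a chaperone of receptor proteins, was at -0.73 (SE 0.51, adjusted p = 0.317) there.

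Sensors of nucleic acid within the list also gave 0 of 6 called, and Ifih1 alone had an unadjusted p under 0.05. Ifih1, which encodes the RNA sensor MDA5, was at 66.8% of control (95% interval 48.1 to 92.7%), with a log2 value of -0.58 (SE 0.24, adjusted p = 0.0630) in the table the authors deposited. Ddx58, for RIG-I, was at 78.6% (55.5 to 111.1%), and Dhx58, for the related LGP2, at 78.3% (44.5 to 137.6%). Zbp1, a sensor that can start necroptosis, was at 52.6% (24.8 to 111.4%). The HIN-200 genes Ifi204 and Ifi209 were at -0.79 (SE 0.50) and -0.76 (SE 0.48) in the table the authors deposited, and share 34.0% and 47.2% of their words with related genes.

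Immunity-related GTPases, which act at the vacuoles of intracellular pathogens, held 2 of the 6 calls. These were 2 of the 5 genes of the group (40%), against 11.7% of all genes called lower. Igtp fell to 61.7% of control (95% interval 43.5 to 87.3%), from a derived mean of 3745 to 2309 normalized counts. The deposited table of the authors gives a log2 difference of -0.70 (SE 0.26, adjusted p = 0.0326). Irgm2 fell to 66.4% (48.5 to 90.9%), with -0.59 (SE 0.23, adjusted p = 0.0474) in that table of the authors. The pair lies within 23.2 kb at chromosome 11, 58199556 to 58222782, and 15.9% of the words of Igtp occur in other genes, all of them in Irgm2, and the 2 annotated genes overlap, so the counts of the pair may not be fully separated. Both calls were lost when fold changes were centred on the summed group means (adjusted p = 0.0564 and 0.0832). Ifi47, Irgm1 and Iigp1 had log2 fold changes of -0.56 (SE 0.26), -0.47 (SE 0.35) and -0.40 (SE 0.46) in the table the authors deposited and did not pass.

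Parp9 and Ifi35 were the called genes of the ADP-ribosylation and nuclear group, 2 of 7 (28.6%), against 11.7% of all genes called lower. Parp9, whose product forms a complex with the ubiquitin ligase DTX3L, fell to 61.5% of control (95% interval 44.5 to 84.9%), with a log2 value of -0.70 (SE 0.24, adjusted p = 0.0188) in the table the authors deposited. Dtx3l, the gene of that partner, and Parp14 lie in the same 139.7 kb of chromosome 16. They were at 82.7% (63.8 to 107.3%) and 88.5% (68.9 to 113.6%) of control. Whether the 3 neighbours differ from one another was not tested, and their intervals overlap. Ifi35 fell to 58.6% (40.5 to 84.7%), with -0.77 (SE 0.27, adjusted p = 0.0245) in the table the authors deposited. Its product pairs with NMI. Phf11d was at -0.79 (SE 0.56), Sp100, of PML nuclear bodies, at -0.45 (SE 0.23) and Trim30a at -0.41 (SE 0.23) in the deposited table, and none of them passed.

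Ifi27l2a had the clearest difference of the 48. It stood at 55.0% of control (95% interval 44.0 to 68.6%), from derived means of 11143 and 6123 normalized counts. The deposited table of the authors gives a log2 difference of -0.86 (SE 0.16, adjusted p = 3.71e-06). It was the 1 gene of the list that also passed an adjusted p under 0.01, and 26 of its 433 words occur in another gene, Ifi27l2b. Tor3a, for an interferon-induced ATPase of the torsin family, fell to 70.2% (54.2 to 91.1%), at an adjusted p of 0.0368 that became 0.0749 with fold changes centred on the summed group means. Cxcl10 was at 74.1% (57.8 to 94.9%) and did not pass, with an adjusted p of 0.0680 in the table the authors deposited. Xaf1 and Ifi44 were at -0.71 (SE 0.52) and -0.40 (SE 0.67) there.

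The genes with the lowest fold changes were not the ones called. The 6 called genes had SEs from 0.16 to 0.27, and the 4 lowest log2 fold changes (Ifit3, Usp18, Irf7 and Ifit1) had SEs from 0.57 to 0.68 in the table the authors deposited. Of the 17 genes with an SE of at least 0.5, with a median log2 fold change of -0.86, 0 were called. Of the 21 with an SE under 0.3, with a median of -0.51, 6 were called. Of all genes tested, 11.7% were called lower. Across the 48 genes the log2 fold change and its SE had a Pearson correlation of -0.63 and a Spearman correlation of -0.61, a description of genes that share libraries. At an adjusted p of 0.05 a gene needed a log2 fold change with a size of 2.53 times its SE. As a fold change the median over the 48 genes was 2.02 (1.17 for Trim25, 3.33 for Oasl1), against 1.23 for the median gene tested. On the log2 scale Ifi204, with an SE of 0.50, needed a size of 1.27, while the lowest value of the list was -1.09. The absence of calls at an SE of at least 0.5 thus follows from that size and is no separate result.

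**Figure D3:**
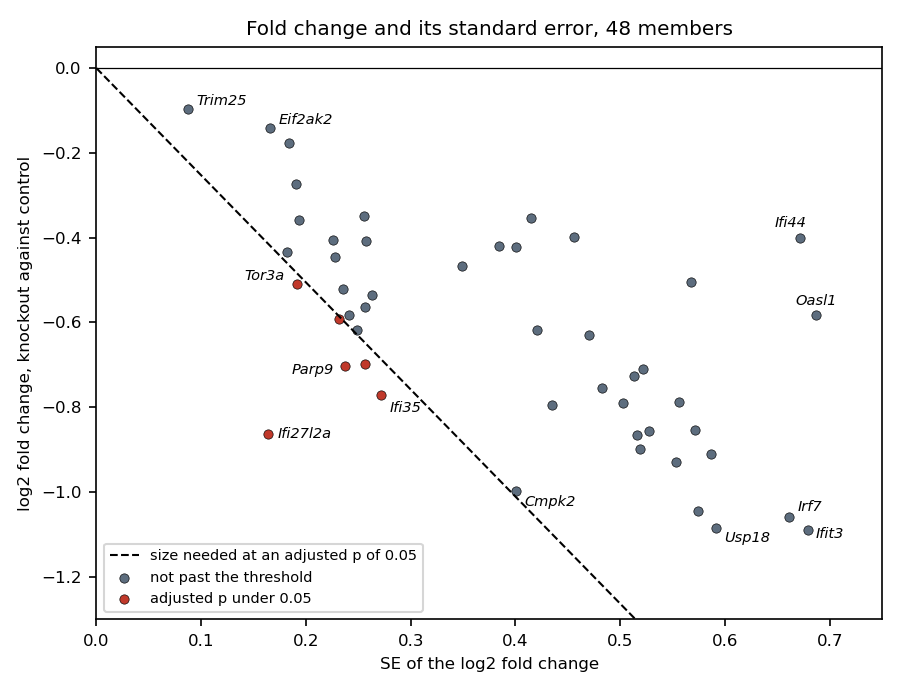
Log2 fold change (y axis) against its SE (x axis) for the 48 genes. The dashed line is the size needed at an adjusted p of 0.05. The 6 red points on or below the line are the called genes, with SEs from 0.16 to 0.27, and Cmpk2 lies just above it.

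The SEs were large for the genes' abundance. Each SE was divided by the median SE of the 200 genes nearest in mean normalized count. The ratio had a median of 4.99 over the 48 genes, was at least 2 in 46 of them and ran from 1.13 (Cxcl10) to 9.21 (Irf7). In 44 genes the SE exceeded that of more than 95% of the genes of like abundance. Trim25 and Cxcl10 were the 2 with a ratio under 2. With 4 libraries a group and equal spread in both, an SE of 0.66 for Irf7 corresponds to a typical deviation of 1.91-fold of a library from its group mean. The median over the 48 genes was 1.48-fold. These values rest on the SE of the authors' fit and on equal spread, and no library values were read. They cannot tell spread in both groups from spread in a single group or library. Nor do they say whether the genes moved together from library to library, which was not examined.

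**Figure D4:**
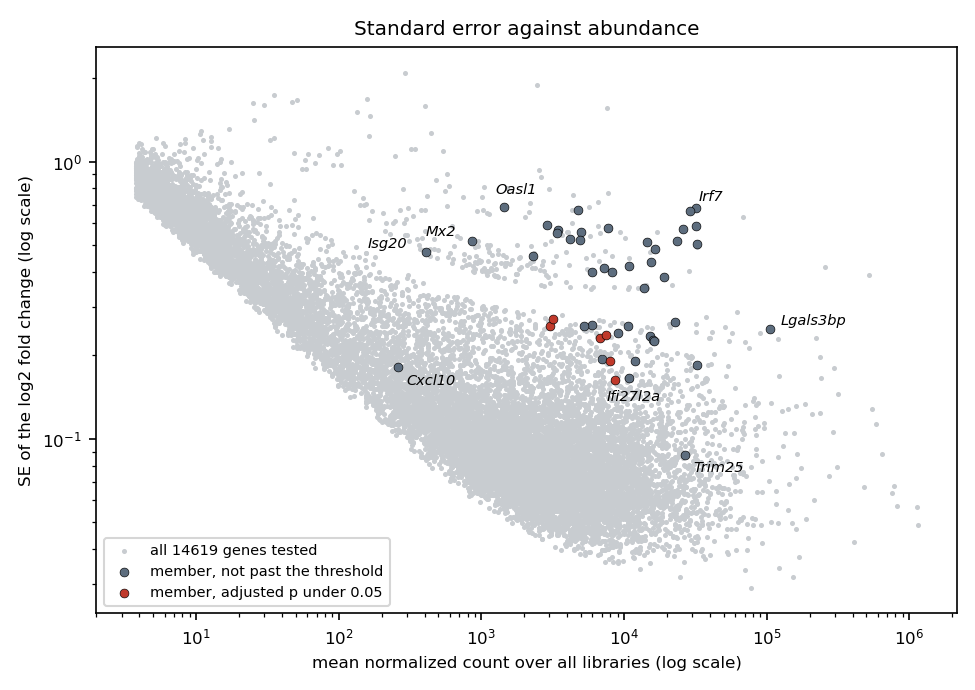
SE of the log2 fold change (y axis, log scale) against the mean normalized count (x axis, log scale) for all 14619 genes tested, with the 48 genes in colour. Most of the 48 sit above most genes of their abundance, while Trim25 and Cxcl10 lie among them.

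Among the 100 genes with the highest ratios, out of 7692 with a mean of at least 1000, 23 were from the list and 17 from a separate list of other interferon stimulated genes. The list has 45 genes above that mean and the other list 64. The remaining 60 had log2 fold changes on both sides of 0, with 26 below it. They included Mki67 and Top2a of the cell cycle and Sqle and Fasn of lipid synthesis. Also among the 60 were H2-Q6 and H2-Q7 of MHC class I presentation and Phf11b, which shares words with Phf11d. All of these were named after their values were seen. The 60 are thus not free of genes tied to interferon.

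A separate list of other interferon stimulated genes also centred below 0. Of 77 measured, 68 were below 0 in the table the authors deposited, with a median of -0.48. There 16 were called lower (20.8%) and 4 higher (5.2%), against 11.7% and 11.3% of all genes tested. Ifitm3, which blocks viral entry, was at -0.66 (SE 0.16), Shisa5 at -0.52 (SE 0.13), the guanylate-binding protein gene Gbp5 at -0.61 (SE 0.16) and Cd274, which encodes PD-L1, at -0.90 (SE 0.24) in the table the authors deposited. Those called higher included the chemokine gene Ccl12 (0.85, SE 0.29), Ifi27 (0.54, SE 0.19) and Gbp8 (0.35, SE 0.14), named after their values were seen. Gbp8 missed the threshold when every gene with a p-value was adjusted (adjusted p = 0.0515). Ifi27 belongs to the same gene family as Ifi27l2a, which was called lower. Median SE ratios were 2.90 here and 4.99 for the 48 genes.

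MHC class I presentation, which interferons also raise, had 8 of 22 measured genes lower (36.4%) and 0 higher, with a median of -0.52. At an unadjusted p under 0.05 these counts were 16 and 0. Of all genes tested, 11.7% were called lower and 11.3% higher, and 18% were lower at the unadjusted bound. The MHC class I genes belong in part to families of similar copies, and their counts are uncertain for that. H2-M3 was at -0.73 (SE 0.18), H2-D1 at -0.64 (SE 0.17) and Tapbp, the peptide-loading factor tapasin, at -0.50 (SE 0.13) in the table the authors deposited. Genes that lean to interferon gamma had a median of -0.34. Of 20 measured, 3 were lower (15%) and 0 higher (6 and 1 at an unadjusted p under 0.05). The 3 were Gbp2, Gbp5 and Psmb8, a subunit of the immunoproteasome that lost its call with centring on the summed group means (adjusted p = 0.0645). NF-kB response genes had 4 of 22 lower (18.2%) and 2 higher (9.1%), with a median of -0.12. With that centring 2 were lower and 3 higher. The 2 called higher without centring were Ptgs2 and Il1rn, named after their values were seen. Lists overlap in part, and no difference between lists was tested.

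A list of genes of nucleic acid sensing and interferon production showed calls in both directions. Beside sensors it holds adaptors, kinases, transcription factors, enzymes that act on nucleic acids and Ifnb1. Of 25 measured genes 8 were lower (32%) and 2 higher (8%), with a median of -0.12. Those lower include Samhd1, Ticam1, Irf5, Tbk1 and Myd88, which are not sensors and were named after their values were seen. Of all genes tested, 11.7% were lower and 11.3% higher. With fold changes centred on the summed group means, 3 of the 25 were lower and 3 higher. Tlr7 (-0.45, SE 0.09) and Tlr3 (-0.59, SE 0.17), receptors of RNA, were lower, and Sting1 (0.43, SE 0.06), for an adaptor downstream of cGAS, and Tlr9 (0.41, SE 0.10), a receptor of DNA, were higher in the table the authors deposited. The DNA sensor gene Aim2 was called lower (-0.33, SE 0.11), while Cgas (0.07, SE 0.12) and the RNA receptor genes Tlr8 (0.01, SE 0.11) and Tlr13 (-0.05, SE 0.12) did not pass in that deposited table. These 4 were named after their values were seen, and Aim2 lost its call with that centring (adjusted p = 0.0630).

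**Figure D5:**
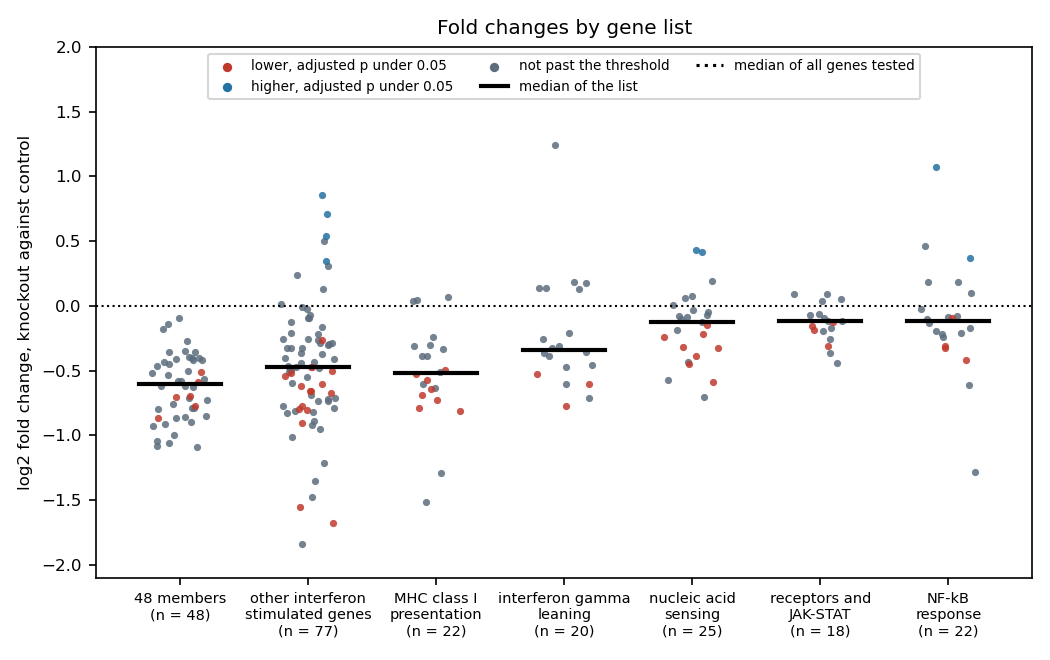
Log2 fold changes (y axis) of the 48 genes and of 6 lists of related genes. Points are genes, bars are list medians, the dotted line is the median of all genes tested, red is called lower and blue called higher. The 48 genes lie wholly below 0, at a median of -0.60. The lists of nucleic acid sensing and interferon production, of receptors and JAK-STAT and of the NF-kB response centre near -0.12.

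Genes of the list with and without an ISRE match had similar medians, and the difference was not tested. The median log2 fold change was -0.59 for the 16 genes with a match and -0.62 for the 19 with a window and no match, and 2 and 1 of them were called. Only 3 of the 6 called genes had a window, so Parp9, Tor3a and Ifi27l2a are absent from this comparison. Outside both lists of interferon stimulated genes, 382 tested genes had a match, with 12.6% called lower and a median of -0.03, against 12.7% and -0.01 of 10200 genes without one.

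Markers of the labelled cell type were present. All 10 macrophage markers were listed, each with a mean normalized count of at least 13108. Of them 1 was called higher (Adgre1, 0.25, SE 0.07) and 5 lower, against 11.3% and 11.7% of all genes tested. The 5 include Lyz2, which Cre disrupts (-9.10, SE 0.42, in the table the authors deposited). Of 13 stromal markers measured, 12 were called higher and 0 lower, beside those same shares of all genes. Their summed derived mean was 3075 normalized counts in control and 12244 in knockout cells. Fn1 alone had a mean of 3162 over all libraries, of 7660 summed over the stromal markers. Among markers of plasmacytoid dendritic cells, a main source of type I interferon, 5 of 7 were listed. Siglech and Ccr9 had means of 2.36 and 7.60, Tcf4 was called lower, Cox6a2 had a mean of 54.2 and a log2 value of 0.36 (SE 0.32) that did not pass, Bst2 is one of the 48 genes, and Klk1 and Ly6d were not listed. The part of other cells in the values of the 48 genes was not tested.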

How the data were processed

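RNA-seq of 4 control and 4 knockout libraries was deposited as a comparison table and a table of normalized values. The submitters' processing notes name DESeq2, Salmon, cutadapt, FastQC and the build mm10. Versions, settings and roles: not given in the sources used here. Per the file headers, the table deposited by the authors gives each gene's mean normalized count over all libraries (a signal, not raw counts), the log2 fold change and its SE in log2 units, the Wald statistic (a score), and the p-value with its adjusted p-value. Recomputing the Benjamini-Hochberg adjustment over the 14619 genes changed no adjusted p by more than 5.7e-09.

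The other table holds 8 columns of values per library whose numbers match no sample label. They were not used, by choice, since columns without a sample were kept out of every step. Depth per library, the joint spread of the members over libraries and fits that leave libraries out were therefore not examined. The sign of the comparison is not stated in the header and was read from Lyz2, which Cre disrupts in the knockout: negative is lower in the knockout.

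Members and lists were chosen with earlier results of these data known. All 48 members are named, with up to 4 genes of each other list by smallest adjusted p, pathway genes chosen by role, and others said to be chosen after their values were seen. Some genes and a motif that this rule covers are not reported here. Genes were called at an adjusted p under 0.05, as the authors' DESeq2 fit gives it. Shared 31-base words were counted over GENCODE M21 transcripts, which also gave gene positions. Steps ran in Python 3.11.15 with scipy 1.17.1 and were tested on simulated data. Alternatives were other filters, thresholds, centring, numbers of like genes and motif lengths, and, chosen after seeing the data, leaving out members that share over 5% of their words.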

Additional observations from a re-analysis of the deposited data

How the results depend on the processing

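No member changed sign under any alternative run here, which was fixed in advance. Only centring moves a fold change, and the amounts subtracted were -0.06 (summed group means) and -0.0040 (median of all genes). The member nearest to 0, Trim25, stood at -0.0957. The count of members called lower, 6, was 3 after centring by the ratio of summed group means (log2 -0.06), 1 at an adjusted p under 0.01, 12 at an adjusted p under 0.1 and 3 of 31 without members that share over 5% of their words, an alternative chosen after seeing the data. Outside the members, the value of Tlr13, which is not called, turned from -0.049 to 0.014 with that centring by summed means. The members' count was 5 with every gene adjusted, 8 at a mean of at least 50 and 6 with centring on the median. Irgm2 lost its call with every gene adjusted (adjusted p = 0.0514), and Cmpk2 and Lgals3bp passed with that minimum (adjusted p = 0.0486 and 0.0491). Over all genes, 3363 were called, of which 49.1% were higher, and 70.9% of 3299 were higher after centring on the summed group means, while 2056 passed an adjusted p under 0.01. The median of the members ran from -0.60 to -0.44, the latter as a mean weighted by the inverse squared SE. The median SE ratio was 5.24 with 50 and 5.14 with 500 like genes. With CT added after the ISRE match, 22.9% of member promoters held it, against 0.303% of all genes. Refits without single libraries, other fits per library and the comparison of replicates were not run, since no library column has a sample. No paired analysis was possible because the library columns carry no sample, group or replicate number.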
